A study of Mus musculus with 9 samples.

Results

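The 4 mammalian Hox clusters hold genes for homeodomain transcription factors that give cells their position along the body and limb axes. The genes stand in numerical order, with low numbers used towards the head and high numbers towards the tail and the limb tips, and a cell of a given place keeps a block of Hox genes open while Polycomb proteins keep the rest closed. The boundary between both blocks is commonly marked by CTCF, an insulator protein, and HOX proteins bind DNA together with PBX and MEIS cofactors. Here 38 Hox genes were examined, 10 in the Hoxa cluster on chromosome 6, 10 in Hoxb on chromosome 11, 9 in Hoxc on chromosome 15 and 9 in Hoxd on chromosome 2 (mm10, GENCODE M21).

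Members were all merged regions of open chromatin that touched the body or the 10 kb flanks of a listed gene, where touching peaks of all 9 libraries had been merged. This gave 73 of 135835 regions. Of these, 50 were consensus regions, found in at least 2 of 3 libraries of any line, among 97338 in all, and 27 held a peak in all 9 libraries, among 47431 in all. The remaining 23 regions were found in too few libraries and were not compared one by one. Their peaks still count in the search of gene starts and in the number and length of peaks per cluster.

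The data are ATAC-seq peaks, which mark where a transposase can reach the DNA. The cells were C3H/10T1/2, an established mouse line used as mesenchymal progenitor cells (MPCs). WT cells received Cas9 without a guide, and B10 and G7 are *Atrx* knockout (KO) clones made with CRISPR-Cas9, each from its own guide. In the paper's workflow, which also names the empty-vector WT control, single GFP-positive cells were seeded per well. WT may therefore be a single-cell clone as well, and what is peculiar to WT cannot be told apart from the knockout. Each line had 3 libraries. Nothing in the labels says that the libraries of a line came from separate cultures, so p-values measure the spread between these libraries, which may be technical, and do not separate the knockout from what else differs between clones. The peak lists cannot check the knockout itself.

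Each list held 76385 to 88535 peaks and gave no read depth, so absence from a list means only that no peak was detected there. The strength of a peak was given as its rank, the percentile of its −log10 q-value within its own library, with 100 the strongest. Of 10 mesenchymal marker genes, 8 had a peak within 500 bp of their start in every library (Twist1, Twist2, Prrx1, Col1a1, Col1a2, Col3a1, Pdgfrb and Fn1), whereas Pdgfra and Thy1 had none in any. The libraries held 0 to 1 of 5 blood, 1 to 2 of 4 endothelial, 0 to 1 of 5 epithelial and 1 of 4 neural marker starts.

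The sequences under the regions on which the results turn are shown for 201 bases around the summit of the strongest peak, on the plus strand of GRCm38 (mm10). Capitals mark exact matches on either strand to AGGNGGCNC, a part of the CTCF motif, to TGATTNAT, a joint site of HOX and PBX proteins, to TAATTA, the homeodomain core, or to TGANTCA, the site of AP-1. The first is the region in the Hoxd cluster whose rank fell most in B10.
Hoxd, 5.49 kb upstream of the Hoxd4 start (exon of the noncoding gene Hoxd3os1), chr2:74715877-74716077: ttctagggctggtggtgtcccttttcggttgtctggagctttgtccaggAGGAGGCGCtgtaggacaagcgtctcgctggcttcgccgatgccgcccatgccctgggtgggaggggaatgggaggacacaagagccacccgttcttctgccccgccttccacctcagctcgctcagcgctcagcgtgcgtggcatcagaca
The next 3 are from the Hoxc cluster at its high-numbered end, where B10 and G7 differed.
Hoxc13 start (summit just upstream of the gene), chr15:102920718-102920918: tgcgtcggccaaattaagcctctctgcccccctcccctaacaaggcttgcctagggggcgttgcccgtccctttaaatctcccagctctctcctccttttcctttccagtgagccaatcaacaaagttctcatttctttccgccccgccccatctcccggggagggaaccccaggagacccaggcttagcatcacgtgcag
Hoxc, 3.89 kb upstream of the Hoxc12 start (intergenic), chr15:102932478-102932678: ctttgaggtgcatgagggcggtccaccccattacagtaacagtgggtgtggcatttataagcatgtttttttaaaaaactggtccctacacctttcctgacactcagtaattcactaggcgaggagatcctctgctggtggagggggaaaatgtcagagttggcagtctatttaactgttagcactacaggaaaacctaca
Hoxc, 1.15 kb upstream of the Hoxc12 start (intergenic), chr15:102935062-102935262: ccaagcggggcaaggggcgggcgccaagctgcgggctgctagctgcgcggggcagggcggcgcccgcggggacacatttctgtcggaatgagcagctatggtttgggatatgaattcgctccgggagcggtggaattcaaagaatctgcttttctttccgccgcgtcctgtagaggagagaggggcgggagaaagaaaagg
The last pair were found in WT only.
Hoxb, 5.34 kb downstream of the Hoxb13 start (intergenic), chr11:96199734-96199934: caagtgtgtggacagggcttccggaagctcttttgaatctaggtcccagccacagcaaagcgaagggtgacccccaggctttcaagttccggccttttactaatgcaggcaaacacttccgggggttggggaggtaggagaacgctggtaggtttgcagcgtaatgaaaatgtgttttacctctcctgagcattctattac
Hoxc, 8.24 kb downstream of the Hoxc8 start (intron of Hoxc5 and Hoxc6), chr15:102999318-102999518: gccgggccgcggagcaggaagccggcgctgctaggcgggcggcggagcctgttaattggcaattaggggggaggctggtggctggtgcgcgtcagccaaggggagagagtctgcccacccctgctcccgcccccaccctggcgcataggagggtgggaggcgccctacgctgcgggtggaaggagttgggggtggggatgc

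A stretch that matches more than 1 motif was counted for each. Across the 50 consensus regions, the CTCF letters were in 7 windows (14%), against 6.08% of all 97338 consensus windows. The joint HOX and PBX letters were in 2 (4%), against 3.82%, and the homeodomain core in 0, against 2.57%. The AP-1 letters were in 3 (6%), against 22.3%. Among the windows with CTCF letters were those at the Hoxd4 region shown, in the flank of Hoxa2, near Hoxa13, upstream of Hoxb9, in the coding exon of Hoxc10 and upstream of Hoxc8. Hox windows had a median of 53.2% G+C and an observed over expected CpG of 0.61, against 49.3% and 0.20 over all consensus windows. These shares are descriptions, and a match of letters does not show that a protein was bound.

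To ask which Hox genes were open in MPCs, the start of the principal transcript of each gene was searched for a peak within 500 bp. A start was called open in a line when at least 2 of 3 libraries held such a peak. WT cells had 9 of 38 starts open, B10 8 and G7 9. Per library, 8 to 10 Hox starts held a peak in WT, 8 in each B10 library and 8 to 9 in G7, or 21.1% to 26.3%. Among all 21853 protein-coding starts the shares were 51.7%, 51.9% and 51.7% in WT, 50.9%, 51.1% and 50.8% in B10 and 51.5%, 51.7% and 51.6% in G7. The number of Hox starts was 9 ± 1 (SD, n = 3) in WT, 8 ± 0 in B10 (difference -1, exact two-sided permutation p = 0.4, adjusted p = 0.8) and 8.67 ± 0.577 in G7 (difference -0.333, exact permutation p = 1, adjusted p = 1), with 0.1 the smallest p that 3 against 3 libraries allow. Of the 38 starts, 7 held a peak in all 9 libraries and 26 in none.

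**Figure D1:**
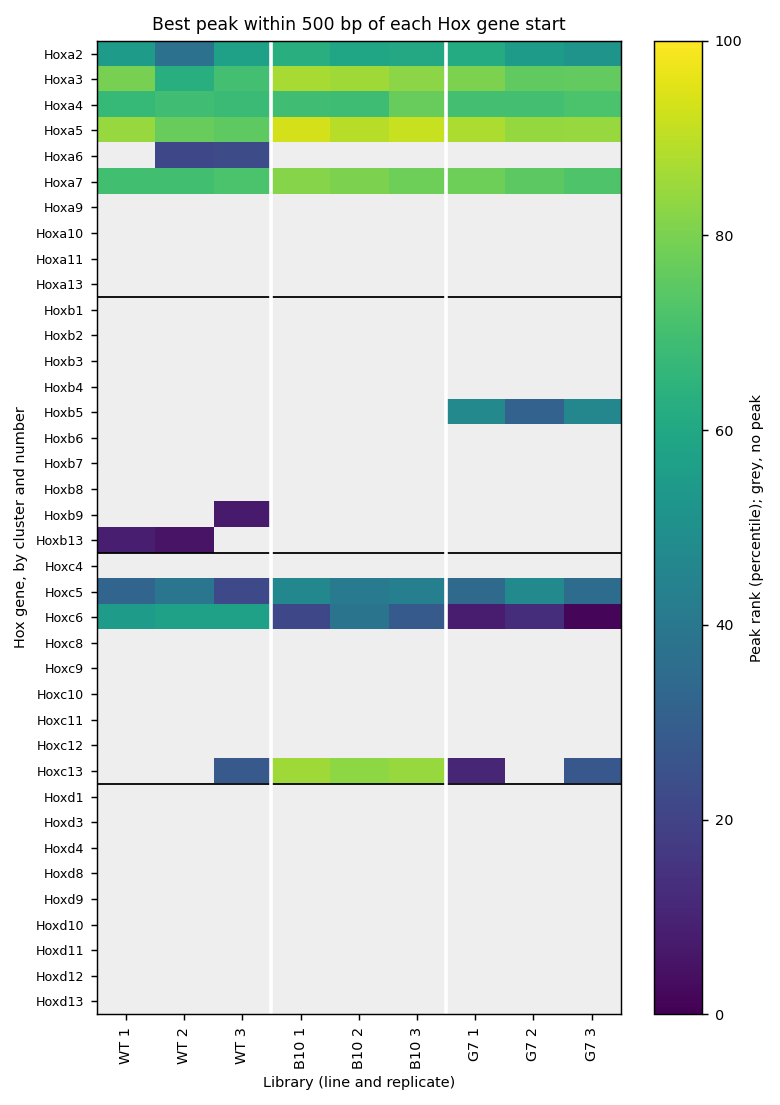
Rank of the best peak within 500 bp of each of the 38 Hox gene starts (rows, by cluster and number) in each of the 9 libraries (columns), as a percentile in colour with grey for no peak. In the Hoxa cluster 5 starts are coloured in every library, and all 9 Hoxd starts are grey.

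In the Hoxa cluster the open block ran from Hoxa2 to Hoxa7, and no library held a peak at the starts of Hoxa9, Hoxa10, Hoxa11 or Hoxa13. These higher-numbered genes serve the trunk, limbs and genital tract. Hoxa5, which acts in the lung and the cervical and upper thoracic skeleton, had the strongest start of the cluster in every line, with ranks of 84.7, 76.7 and 75.3 in WT, 93.7, 89.4 and 91.7 in B10 and 87.5, 84.1 and 84.7 in G7. Every B10 library was above every WT library at Hoxa5, while G7 overlapped WT. Hoxa6 was the exception within the block, with a peak in WT replicates 2 and 3 (ranks 21.7 and 23.4) and in none of the clone libraries, so that the Hoxa block was interrupted at Hoxa6 in both clones. Past Hoxa7, a region over another start of Hoxa10 was open in all 9 libraries at ranks of 69.2 to 85.7 (chr6:52239692-52240881, 4.75 kb upstream of the principal start), although the principal start of Hoxa10 held no peak. Counting any protein-coding start of a gene, Hoxa10 was open in every line, with Hoxa9 closed between it and the open block, and 11 Hox genes were open in WT, 9 in B10 and 10 in G7.

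In the Hoxc cluster Hoxc5 and Hoxc6 were open in all 9 libraries, while Hoxc4 on one side and Hoxc8, Hoxc9, Hoxc10, Hoxc11 and Hoxc12 on the other held no peak at their starts in any. Hoxc13, which controls hair and nail keratins, was the end of the cluster and differed between lines. Its start held a peak in 1 WT library (rank 27.8), in all 3 B10 libraries (85.8, 83 and 84.5) and in 2 G7 libraries (10.6 and 27). The B10 peaks had a fold enrichment (the strength of a peak over a background that the sources used here do not give) of 16.3, 17.7 and 17.4, against 6.73 for the WT peak and 4.31 and 6.14 for the G7 peaks. All B10 values lay above all others. As 1 WT library held a peak, the region was not called gained, and as not all libraries did, it had no rank test.

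In the Hoxb cluster no start was open in all lines. Hoxb13, a gene of the tail end and prostate, held weak peaks in WT replicates 1 and 2 (ranks 8.58 and 5.22) and none elsewhere. Hoxb5 held a peak only in the 3 G7 libraries (47.2, 31.6 and 46.3). Hoxb9 held a peak in WT replicate 3 alone (7.36), and Hoxb1 to Hoxb4, Hoxb6, Hoxb7 and Hoxb8 in no library. In the Hoxd cluster none of the 9 starts, from Hoxd1 to the limb genes Hoxd11, Hoxd12 and Hoxd13, held a peak in any library. The number of open starts in WT was 7 without WT replicate 2 and 8 without either other WT replicate.

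Along the clusters, open regions were unevenly spread. Hoxa had 18 consensus regions, of which 15 (83.3%) were found in all 9 libraries, Hoxb 3 of 11 (27.3%), Hoxc 7 of 16 (43.8%) and Hoxd 2 of 5 (40%), against 48.7% of all consensus regions. Among regions found in all 9 libraries, and by the median of their ranks, the strongest Hoxa region lay 7.53 kb upstream of the Hoxa2 start, in a UTR of a Hoxa3 transcript (chr6:52172361-52173122), with ranks of 91.2 to 95 in the 9 libraries. By the same measure the strongest regions were weaker in Hoxb (chr11:96278544-96279203, 2.7 kb upstream of Hoxb8, 68.3 to 78.9) and in Hoxc (chr15:102986500-102987943, 2.66 kb upstream of Hoxc8, 66.1 to 80.3). In Hoxd it was the Hoxd4 region shown above, although in each B10 library the region upstream of Hoxd13 ranked above it, and in B10 the Hoxc13 start lay above the strongest Hoxc region.

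**Figure D2:**
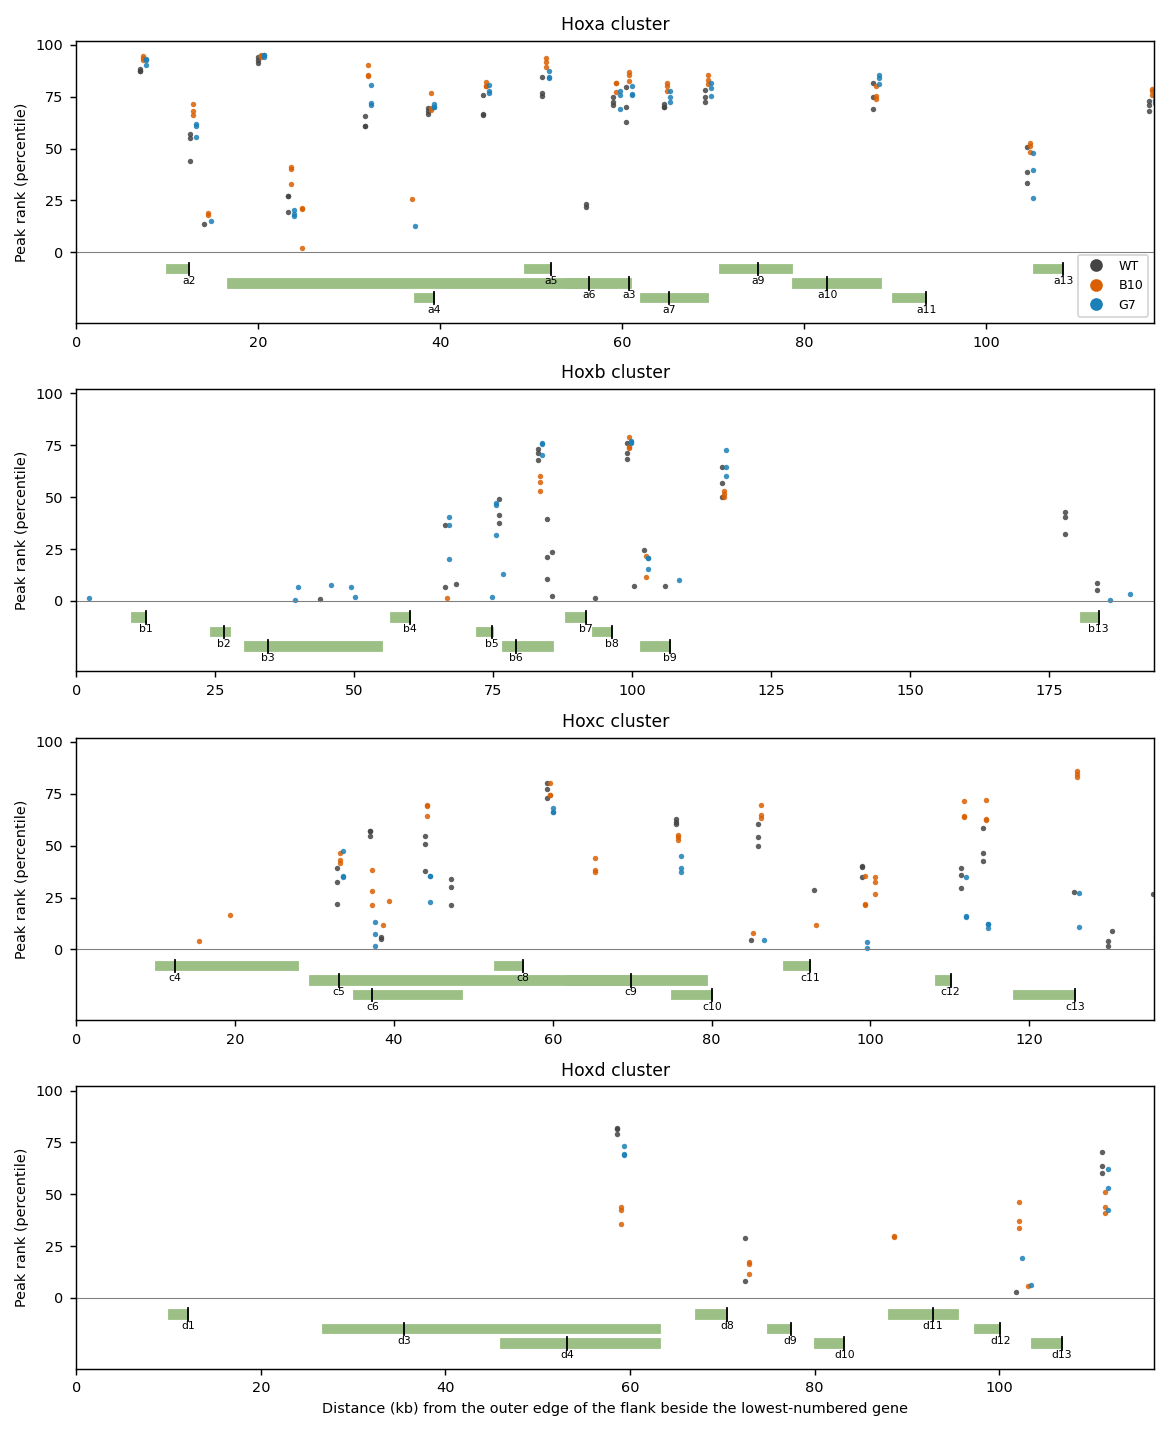
Peak rank (percentile) of every Hox region in each library against distance in kb along the 4 clusters, with low-numbered genes on the left; dark grey points are WT, orange B10 and blue G7, green boxes are gene bodies and ticks principal starts. Most Hoxa points lie high from Hoxa2 to Hoxa7, and again near Hoxa10 and 9.31 kb upstream of Hoxa13. The region 3.49 kb downstream of the Hoxa13 start lies at 26.4 to 52.8, and Hoxd holds 6 regions.

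To compare how much of each cluster was open, the length covered by peaks was summed over the cluster with its flanks. Hoxb peaks covered 5.2, 6.26 and 7.15 kb in WT, 2.96, 3.71 and 3.23 kb in B10 and 5.78, 6.82 and 6.14 kb in G7. The B10 libraries lay below all others, at a difference of -2.91 kb from WT (exact two-sided permutation p = 0.1, the smallest possible, adjusted p = 0.4 over 8 comparisons), and G7 differed from WT by 0.041 kb (exact permutation p = 1, adjusted p = 1). B10 held 7.67 ± 0.577 Hoxb peaks (SD, n = 3) with a mean width of 432 bp, and WT 14 ± 1.73 with 443 bp.

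Hoxc peaks covered 7.9, 9.34 and 7.9 kb in WT, 8.62, 8.71 and 9.72 kb in B10 and 3.73, 4.42 and 4.4 kb in G7. Here G7 lay below all others, at -4.2 kb from WT (exact permutation p = 0.1, adjusted p = 0.4), and B10 differed from WT by 0.636 kb (exact permutation p = 0.3, adjusted p = 0.6). G7 held 10 ± 1 Hoxc peaks (SD, n = 3) with a mean width of 436 bp, and WT 13.3 ± 1.53 with 637 bp. Hoxa and Hoxd cover overlapped between the lines, at 16.3 to 17.7 kb and 1.08 to 1.75 kb per library (exact permutation p from 0.3 to 0.8).

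**Figure D3:**
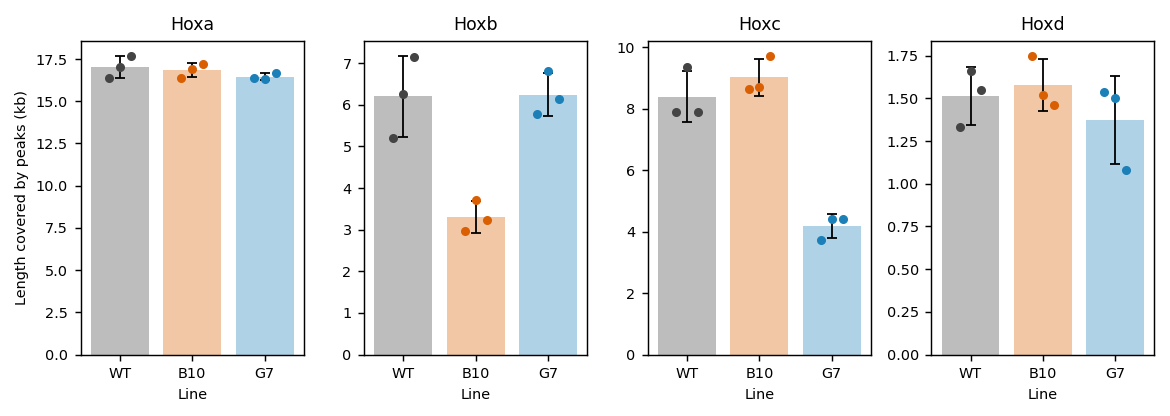
Length covered by peaks (kb) in each cluster with its 10 kb flanks; bars are means of 3 libraries, error bars SD and points single libraries, each axis starting at 0. B10 is lowest in Hoxb (2.96 to 3.71 kb) and G7 in Hoxc (3.73 to 4.42 kb).

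Next, regions were compared by presence. Gained regions had a peak in at least 2 clone libraries and in none of WT, and lost regions the opposite. These calls carry no p-value. Of the 50 Hox regions, B10 gained 4 (8%, against 10.4% of all consensus regions) and lost 8 (16%, against 7.58%). G7 gained 1 (2%, against 5.69%, and 2 without any single WT library) and lost 9 (18%, against 7.42%). Both clones lost the same 7 regions (14%, against 4.36%) and gained 0 in common (against 2.97%, and 1 without any single WT library). The clones share the WT libraries in these counts. Single libraries carried part of them: losses in G7 numbered 5 without WT replicate 1 and 4 without WT replicate 2, losses in B10 4 without WT replicate 2, and losses in both clones 3 without WT replicate 2. Where 3 of 3 against 0 of 3 libraries was required, B10 lost 4, G7 3 and both clones 3.

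The 7 regions lost in both clones were 4 in Hoxb, 2 in Hoxc and 1 in Hoxa. Of these, 3 had a peak in all 3 WT libraries. The region between Hoxb13 and Hoxb9 (chr11:96199655-96200451) ranked 32.1, 40.5 and 43 in WT, with a fold enrichment of 6.25, 8.19 and 8.22. The region within Hoxc5 and Hoxc6 (chr15:102998845-102999666) ranked 29.9, 34.1 and 21.2. The region upstream of Hoxb6 (chr11:96292870-96293504, 5.67 kb from its principal start and in an exon of Hoxb5os) ranked 39.7, 10.5 and 21.2. These are of lower or middle rank, and none held a peak in a clone.

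The other 4 were found in 2 WT libraries each and were weak. They lay over the starts of Hoxa6 and Hoxb13, over another start of Hoxb6 (chr11:96292100-96292510, ranks 2.53 and 23.6) and 4.39 kb upstream of Hoxc13 (chr15:102916387-102916716, ranks 1.63 and 4.08). Their highest rank was 23.6.

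B10 alone lost the region 1.35 kb upstream of Hoxb5 (chr11:96301669-96302162), at 48.9, 37.7 and 41.2 in WT and 13.2 in 1 G7 library. G7 alone lost regions upstream of Hoxc6 (chr15:103007969-103008409, 4.88 and 6.01 in 2 WT libraries and 11.7 in 1 B10 library) and of Hoxd8 (chr2:74702123-74702443, 28.7 and 8.24 in WT). That Hoxd8 region was kept in B10, at 16.5, 11.7 and 17.5.

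The 4 regions gained in B10 were each absent from G7. In Hoxc they were an intron of Hotair, a noncoding RNA of the cluster (chr15:102946138-102946518, ranks 26.8, 34.7 and 32.7), and the coding exon of Hoxc9 (chr15:102980808-102982307, 37.3, 44.3 and 38.5). The others were an intron of Hoxa3 (chr6:52177072-52177410, 2.18, 20.8 and 21.2) and an exon of Hoxd11 (chr2:74686419-74686615, 30.1 and 29.5 in 2 libraries). The 1 region gained in G7 was that beside the Hoxb5 start, with a fold enrichment of 8.52, 6.17 and 8.57, and B10 held no peak there. In all, 5 Hox regions were in B10 and not in G7 (10%, against 8.25% of all) and 1 was in G7 and not in B10 (against 4.24%, and 2 without B10 replicate 1).

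**Figure D4:**
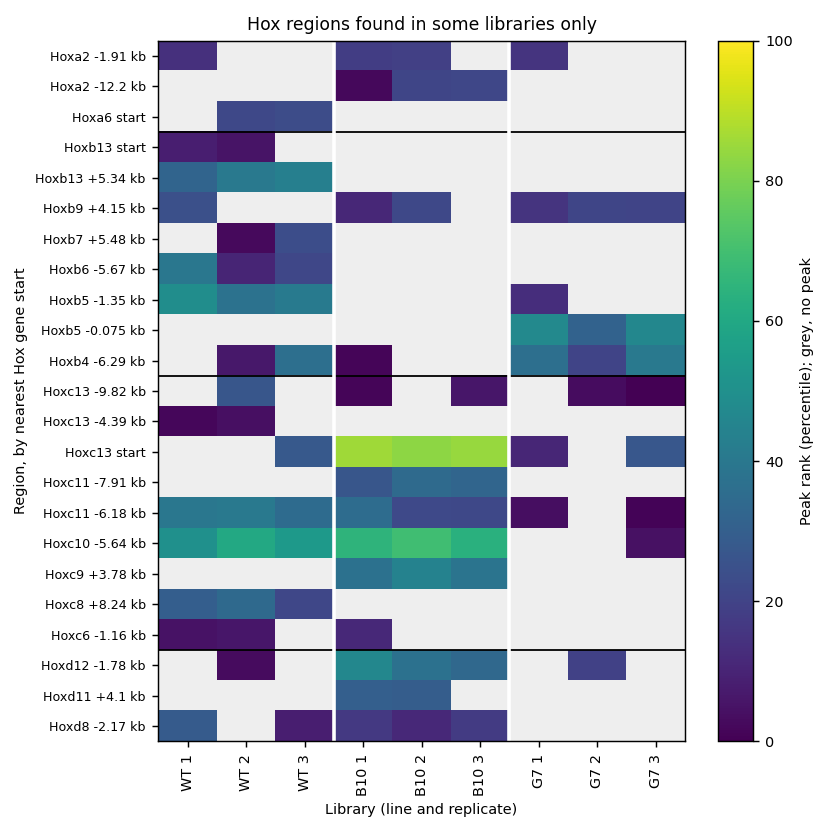
Peak rank (percentile, in colour, grey for no peak) of the 23 Hox consensus regions that lack a peak in at least 1 library, in each of the 9 libraries; names give the nearest Hox start and the distance to it, minus for upstream. The Hoxc13 start stands out in the 3 B10 libraries, at 83 to 85.8.

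Ranks were tested with limma over the 47431 regions found in every library, with Benjamini-Hochberg adjustment. Of the 27 Hox regions, B10 ranked higher than WT at 9 (33.3%, against 11% of all regions) and lower at 4 (14.8%, against 5.37%). G7 ranked higher than WT at 2 (7.41%, against 5.39%) and lower at 3 (11.1%, against 4.82%). With the replicate number as a block these counts were 14 and 4 in B10, and 5 and 7 in G7, against 21.4% and 12.1%, and 13.2% and 13.4%, of all regions. B10 ranked higher than G7 at 3 (against 4.21% of all regions) and lower at 2 (against 2.39%), or at 9 and 3 with the block (against 14.3% and 6.58%). The median difference over the 27 regions was 7.58 points in B10 and 3.08 in G7, beside 0.702 and -0.035 over all regions. Single libraries moved the counts: B10 had 4 to 5 higher without any of its own replicates or without WT replicate 2 or 3, and 11 without WT replicate 1. It had 2 lower without WT replicate 2 or 3 or B10 replicate 2 or 3. G7 had 6 higher without WT replicate 1, and 0 without WT replicate 2 or 3 or G7 replicate 2 or 3. Without replicate 2 or replicate 3 of every line, 0 or 1 Hox regions passed against WT in each direction.

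These calls moved with the chromosome. All regions of chromosome 6, which carries Hoxa, had a median difference of 5.68 points in B10 and 1.45 in G7, and the 258 other regions within 5 Mb of Hoxa a median of 5.55 and 2.02, with 81% and 68.6% of them above WT. Chromosome 2, with Hoxd, had medians of -0.245 and -3.9. Chromosomes 11 and 15 lay between -0.0913 and 0.52. With ranks centred on the chromosome median, the 27 Hox regions counted 2 higher and 5 lower in B10 (against 6.79% and 7.79% of all regions), 0 higher and 3 lower in G7 (against 5.09% and 3.12%), and 3 higher and 4 lower in B10 than in G7 (against 2.14% and 5.16%). With centring and the block together, 6 were higher and 5 lower in B10 (against 14.7% and 19.3%), 3 higher and 5 lower in G7 (against 13.6% and 10.9%), and 5 higher and 7 lower in B10 than in G7 (against 8.02% and 14.2%). By log2 fold enrichment, 2 were higher and 2 lower in B10 (against 6.07% and 2.18%), 0 higher and 2 lower in G7 (against 1.43% and 1.12%), and 1 higher and 1 lower in B10 than in G7 (against 1.06% and 0.645%). Whether or not they passed, 20 of the 27 lay above WT in B10 by rank, 15 when centred and 21 by log2 fold enrichment, and in G7 17, 16 and 13.

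In the Hoxa cluster all 15 regions ranked higher in B10 than in WT, 7 of them past the threshold, with a median of 9.48 points, but after centring on chromosome 6 10 were higher and 5 lower, with 1 call each way (3 higher and 1 lower with the block), and by log2 fold enrichment 13 were higher with 1 call, at Hoxa5 (0.47 ± 0.13, limma adjusted p = 0.0454). In G7 13 of 15 ranked higher, by a median of 4.17 points, with 2 calls, and 12 were higher with 0 calls after centring (3 with the block). The region 6.15 kb downstream of the Hoxa4 start, which covers another start of Hoxa3, ranked 65.8, 61.1 and 60.8 in WT, 90.2, 85.7 and 84.9 in B10 and 80.7, 71.9 and 71.2 in G7. Every library of both clones ranked above all of WT, by 24.4 ± 3.22 points in B10 (SE, limma adjusted p = 0.00149) and 12.1 ± 3.22 in G7 (adjusted p = 0.0434). Centred on the chromosome, the B10 difference was 17.1 ± 3.02 (limma adjusted p = 0.00421) and the G7 difference 10.2 ± 3.02 (adjusted p = 0.0644, with the block 0.00219). At this region the uncentred G7 call was lost without any library other than WT replicate 1. Its fold enrichment was 7.03, 7.31 and 6.93 in WT, 10.1, 9.17 and 8.92 in B10 and 8, 6.27 and 6.63 in G7, so that G7 and WT overlapped, and on the log2 scale neither difference passed, at 0.51 ± 0.14 in B10 (limma adjusted p = 0.0547) and 0.07 ± 0.14 in G7 (adjusted p = 0.881).

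The region over the start of Hoxa2, a gene that patterns the hindbrain and the tissue of the middle ear, ranked higher in B10. The difference was 16.5 ± 4.42 points (limma adjusted p = 0.0323), and 9.19 ± 4.59 when centred (adjusted p = 0.212). The summit of its strongest peak lay upstream of the start, in an exon of the noncoding gene Hoxaas2. Within 500 bp of the start, the best peaks ranked 55.2, 37.3 and 57.1 in WT and 63, 58.7 and 60.3 in B10. That difference was not tested. The starts of Hoxa3, Hoxa5 and Hoxa7 ranked higher in B10 by 14.1 ± 3.79, 12.7 ± 2.39 and 9.48 ± 2.41 points (limma adjusted p = 0.0322, 0.00746 and 0.0263). Centred, none of these 3 passed, at 6.86, 5.39 and 2.2 points, although with the block as well those at Hoxa3 and Hoxa5 did (limma adjusted p = 0.0394 and 0.0113). In G7 the Hoxa5 difference of 6.52 ± 2.39 points did not pass (limma adjusted p = 0.119) but did with the block (adjusted p = 0.00852). The region in the flank of Hoxa2 over the start of the noncoding RNA Hotairm1 (chr6:52158136-52161397) ranked 87.9 ± 0.635 in WT (SD, n = 3), 93.7 ± 0.939 in B10 and 92 ± 1.63 in G7. Its differences of 5.79 ± 0.952 and 4.17 ± 0.952 points passed (limma adjusted p = 0.004 and 0.0243), and were -1.49 and 2.35 when centred, where neither passed. The seventh call lay 5.16 kb upstream of Hoxa4, at 11.1 ± 2.94 points (limma adjusted p = 0.0304) and 3.85 when centred, and in G7 its difference of 8.77 ± 2.94 did not pass (adjusted p = 0.0919, with the block 0.0147). Of these 7 calls in B10, those downstream of Hoxa4, at Hoxa5 and at Hotairm1 held in each fit without a library. Those at Hoxa2, at Hoxa3 and upstream of Hoxa4 were lost without WT replicate 2, without any B10 replicate or without G7 replicate 3, the latter pair also without WT replicate 3, and that at Hoxa7 without WT replicate 2 or 3 or B10 replicate 1 or 2. The G7 call at Hotairm1 was lost without WT replicate 2 or 3 or G7 replicate 2 or 3. The strongest Hoxa region moved by 1.99 points in B10 (limma adjusted p = 0.0985) and 2 in G7 (adjusted p = 0.121), and with the block both passed (adjusted p = 0.0251 and 0.0302). Centred on the chromosome, it was lower in B10 by -5.29 ± 0.811 (limma adjusted p = 0.00194).

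In the Hoxc cluster 4 of 7 regions ranked higher in B10 than in WT and 1 of 7 in G7. At the Hoxc6 start (chr15:103009194-103009942), a gene of the thoracic region, ranks were 54.8, 57.3 and 57.2 in WT, 21.6, 38.3 and 28.4 in B10 and 7.47, 13.2 and 1.9 in G7. The lines did not overlap, and the rank fell by 27 ± 5.72 points in B10 (limma adjusted p = 0.0121) and by 48.9 ± 5.72 in G7 (adjusted p = 0.00141). Both calls held in each fit without a single library, when centred on chromosome 15 (limma adjusted p = 0.00877 and 0.00118) and by log2 fold enrichment, at -0.68 ± 0.17 (adjusted p = 0.0314) and -1.23 ± 0.17 (adjusted p = 0.00469). The next start, Hoxc5, ranked 31.2 ± 8.75 in WT (SD, n = 3), 43.7 ± 2.53 in B10 and 39.1 ± 7.24 in G7, and neither difference passed (limma adjusted p = 0.188 and 0.451).

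Upstream of Hoxc12, a gene of the tail and hind limb, lay a pair of regions. That at 3.89 kb ranked 58.3, 42.4 and 46.6 in WT, 72, 62.6 and 63.1 in B10 and 12.2, 12.5 and 10.3 in G7. B10 was above and G7 below every WT library. The G7 rank fell by 37.4 ± 5.38 points (limma adjusted p = 0.00353), the B10 difference of 16.8 ± 5.38 did not pass (adjusted p = 0.0615) but did with the block (adjusted p = 0.019), and B10 exceeded G7 by 54.2 ± 5.38 (limma adjusted p = 0.000894). That at 1.15 kb ranked 39.2, 36.1 and 29.7 in WT, 63.9, 71.5 and 64.4 in B10 and 15.9, 35 and 15.8 in G7. It rose by 31.6 ± 6.19 in B10 (limma adjusted p = 0.0088), while the difference in G7 was -12.7 ± 6.19 (adjusted p = 0.229). By log2 fold enrichment the G7 call at 3.89 kb held, at -0.86 ± 0.17 (limma adjusted p = 0.0239), and the B10 call at 1.15 kb did not, at 0.64 ± 0.18 (adjusted p = 0.053).

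The region 6.39 kb upstream of Hoxc6 (chr15:103002095-103003179) ranked higher in B10 than in WT by 20 ± 5.69 points (limma adjusted p = 0.0406, and 0.0647 when centred, or 0.0129 when centred with the block), a call lost without WT replicate 2 or 3, any B10 replicate or G7 replicate 2, and the G7 difference was -16.6 ± 5.69 (adjusted p = 0.0972, with the block 0.027). That over the coding exon of Hoxc10 (chr15:102970443-102971620) fell by 21.1 ± 3.91 points in G7 (limma adjusted p = 0.0104) and differed by -7.46 ± 3.91 in B10 (adjusted p = 0.231). By log2 fold enrichment neither the B10 call upstream of Hoxc6 (0.59 ± 0.17, limma adjusted p = 0.0551) nor the G7 call at Hoxc10 (-0.50 ± 0.12, adjusted p = 0.0619) held. The strongest Hoxc region, upstream of Hoxc8, differed by -0.508 ± 2.91 in B10 (limma adjusted p = 0.933) and by -9.85 ± 2.91 in G7 (adjusted p = 0.061, with the block 0.00973). Not every library held a peak at the region between Hoxc11 and Hoxc10 (chr15:102960089-102961157), which ranked 50.1 to 60.5 in WT and 63.3 to 69.5 in B10 but held a peak in 1 G7 library only, at 4.34.

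In the Hoxd cluster the region 5.49 kb upstream of Hoxd4 (chr2:74715794-74716493), at the start of Hoxd3os1, ranked 81.6, 82.1 and 79 in WT, 43.9, 42.3 and 35.6 in B10 and 73.1, 69.2 and 68.8 in G7. Its fold enrichment was 20.7, 21.8 and 19.9 in WT, 8.41, 8.61 and 7.78 in B10 and 17.3, 15.5 and 16.2 in G7. The 3 lines did not overlap in either measure. The rank fell by 40.3 ± 3.54 points in B10 (limma adjusted p = 0.000249), in every fit without a library, when centred on chromosome 2 (-40.8 ± 3.54, adjusted p = 0.000115) and by log2 fold enrichment (-1.23 ± 0.09, adjusted p = 0.000447). In G7 the difference was -10.6 ± 3.54 (limma adjusted p = 0.0918, with the block 0.0274), and B10 lay below G7 by -29.7 ± 3.54 (adjusted p = 0.002). The region 4.24 kb upstream of Hoxd13 (chr2:74663278-74664067) fell by 19.4 ± 5.73 points in B10 (limma adjusted p = 0.0461) and differed by -12.1 ± 5.73 in G7 (adjusted p = 0.216, with the block 0.0477). The B10 call there was lost without any of 7 libraries and by log2 fold enrichment (-0.58 ± 0.17, limma adjusted p = 0.0613).

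In the Hoxb cluster the region 3.87 kb upstream of Hoxb6 (chr11:96294265-96295306) ranked 68.1, 71.5 and 73 in WT, 60.2, 52.8 and 57.2 in B10 and 75.8, 70.1 and 76 in G7. B10 lay below all other libraries, and the rank fell by 14.1 ± 3.43 points (limma adjusted p = 0.0218), although its log2 fold enrichment differed by 0.03 ± 0.12 (adjusted p = 0.9). The call was lost without WT replicate 2 or 3 or B10 replicate 2 or 3. The strongest Hoxb region, upstream of Hoxb8, differed by 3.54 ± 2.8 points in B10 (limma adjusted p = 0.44) and 4.68 ± 2.8 in G7 (adjusted p = 0.33), and by log2 fold enrichment it passed in B10, at 0.34 ± 0.09 (adjusted p = 0.0472).

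**Figure D5:**
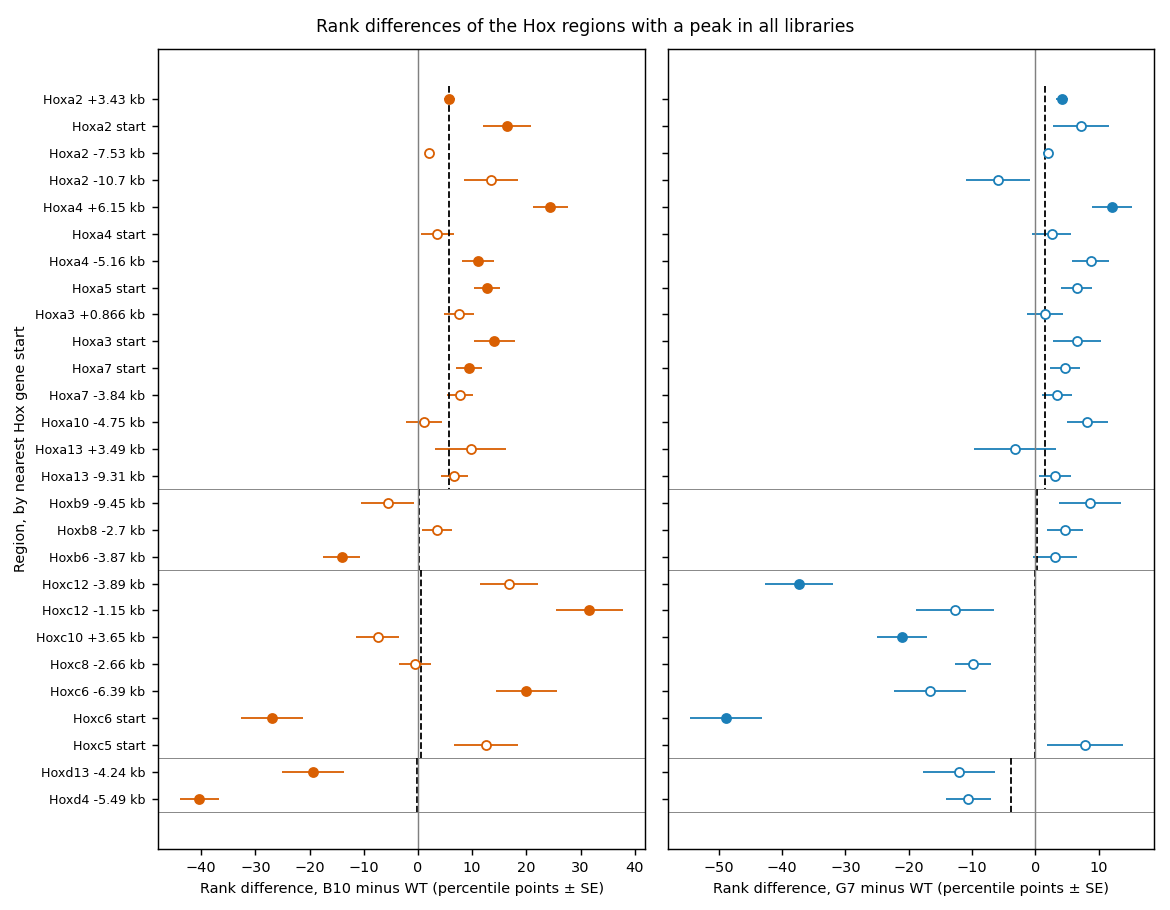
Rank difference from WT in percentile points, ± SE of limma, for the 27 Hox regions with a peak in all 9 libraries, in B10 (left, orange) and G7 (right, blue); filled points have an adjusted p under 0.05, and dashed lines mark the median of all regions on the chromosome of each cluster. The Hoxd4 region is lowest in B10 at -40.3, and the Hoxc6 start lowest in G7 at -48.9.

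Genes that work with or regulate Hox genes were given by 4 lists of 39 genes, and 222 consensus regions had such a gene as their nearest protein-coding start within 50 kb. Of these, 4 were gained and 6 lost in both clones (1.8% and 2.7%, against 2.97% and 4.36% of all consensus regions). Of the 114 found in every library, 17 ranked higher in B10 (14.9%, against 11% of all regions) and 8 lower (7.02%, against 5.37%), and 13 ranked higher in G7 (11.4%, against 5.39%) and 1 lower (0.877%, against 4.82%). With the block these were 30 and 10, and 20 and 8, against 21.4% and 12.1%, and 13.2% and 13.4%. The Polycomb genes had 11 higher and 4 lower in B10 and 8 higher and 0 lower in G7 of 48 regions, with medians of 2.52 and 1.55 points. The cofactors had 1 higher and 3 lower in B10 and 1 each way in G7 of 27 regions, the activators 4 and 1, and 3 and 0, of 36, and the insulation genes 1 and 0 in each clone of 3. The list of activators also held Cyp26b1, which degrades retinoic acid. All 4 regions of that list that ranked higher in B10 were at Cyp26b1, and the 3 in G7 were at Cyp26b1 and Kdm6a.

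Meis2, a cofactor of HOX proteins, was called in several places. It had 3 regions gained in both clones at 16.5 to 36 kb from a start, 1 lost in both (chr2:116062137-116062494, 2.02 kb from a start, ranks 30.3, 17.7 and 29.7 in WT) and 1 that fell in both. Among the gained regions, that at chr2:116047115-116048011 held no peak in WT, ranked 57.6, 61.8 and 46 in B10 and 49.3, 53.3 and 39.8 in G7. The region that fell (chr2:116049326-116050407) ranked 55.8, 57.7 and 60.9 in WT, 28.9, 24.2 and 37.9 in B10 and 29.6, 24.9 and 29.2 in G7, by 27.8 ± 5 and 30.2 ± 5 points (limma adjusted p = 0.00598 and 0.00639). Another pair of Meis2 regions passed in 1 clone. That over a start (chr2:116065270-116065938) rose in B10 by 6.58 ± 1.8 points (limma adjusted p = 0.0346), with 2.63 ± 1.8 in G7 (adjusted p = 0.399). That at chr2:116020249-116021621 rose in G7 by 36.8 ± 7.3 (limma adjusted p = 0.0137), with 18 ± 7.3 in B10 (adjusted p = 0.126, with the block 0.0305). Meis3 had 2 regions lost in both clones, and Cdx2, an activator of posterior Hox genes, had 1 lost (chr5:147299085-147299588, ranks 49.6, 56.8 and 46 in WT), as had Kdm6b and Rara, with 2 WT libraries each. Regions that lacked a peak in some library had no rank test, and their mean ranks differed both ways. In WT, B10 and G7 these were 87.8, 45.5 and 16.7 at another Cdx2 region (chr5:147292246-147293607) and 85.6, 29.6 and 8.14 at the Pbx4 start. At a Cyp26b1 region (chr6:84594482-84595126) they were 9.16, 54.1 and 44.9. The Meis3 start averaged 72.2 in WT and 52.8 in G7 and held no peak in B10. The counts gained and lost in both clones ran from 2 to 9 and from 3 to 9 without single libraries.

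Among the Polycomb genes, regions at Cbx7, Ezh1, Ezh2 and Phc2 ranked higher in both clones. The start of Cbx7, which reads the Polycomb mark, rose by 19.2 ± 4.22 points in B10 and 29.1 ± 4.22 in G7 (limma adjusted p = 0.0143 and 0.00367), from 29.4, 34.7 and 35.1 in WT. The start of Ezh2, the enzyme that sets the mark, rose by 4.99 ± 0.571 and 3.2 ± 0.571 (limma adjusted p = 0.000772 and 0.00892), from 92.5 on average in WT. Rnf2 had 1 region gained in both clones, in 2 libraries of each. The start of Ctcf rose by 5.1 ± 1.12 and 6.43 ± 1.12 (limma adjusted p = 0.0146 and 0.00805), and a pair of regions at Cyp26b1, an enzyme that degrades retinoic acid, by 19.8 ± 3.49 and 12.6 ± 1.92 in B10 and 14.6 ± 3.49 and 7.11 ± 1.92 in G7 (limma adjusted p from 0.0029 to 0.0454). Ezh2 and Cyp26b1 lie on chromosome 6, whose median moved by 5.68 points in B10 and 1.45 in G7. With ranks centred on the chromosome, 6 of the 114 regulator regions were higher and 9 lower in B10, against 6.79% and 7.79% of all regions, and 8 higher and 1 lower in G7, against 5.09% and 3.12%.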

How the data were processed

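ATAC-seq was run on C3H/10T1/2 MPCs with 3 libraries each of WT, B10 and G7. The authors aligned paired-end reads to mm10 with Rsubread and called peaks per replicate with MACS2 in its paired-end mode (version not given in the sources used here). The deposited peak lists give a fold enrichment (a ratio of signal to a background not given in the sources used here), the −log10 p-value and −log10 q-value, a score that was not used, and the summit. The lowest −log10 q-value was 1.3 to 1.31 per list, which is a q-value of 0.05. Without counts the depth is unknown, and no interval that needs it is given.

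The merging and consensus rule follow the study. Ranks were fitted with limma 3.58.1 (lmFit and eBayes with trend, R 4.3.3) over 47431 regions, with the 3 lines as groups, and adjusted per contrast. The test was tried on simulated data, where differences came out unbiased but most shifts under about 20 points were missed, so a region without a call may still differ. When few regions moved, even most large shifts were missed and the recovery required at first was not reached. The simulation was then enlarged, with a new requirement, after that outcome was seen. Same-numbered libraries deviated together (correlations of 0.314 to 0.664 over 9 pairs), so a fit with the replicate number as a block is given where it changes a call. Exact permutation tests used scipy 1.17.1. Genes follow GENCODE M21 and sequences RefSeq's GRCm38.p6, the same assembly as mm10. No pair of lists had over 0.379% of peaks in identical form.

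Members and lists were chosen with earlier results of these data known. Named regions were those called by presence or rank in either clone, the strongest of each cluster and those at boundaries, and named regulators those called the same way in both clones. Alternatives per region are given for the named regions, a choice narrowed after their outcome over all 27 had been seen. For all 27, the counts per direction on each scale are given instead. A few items are not reported here.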

Additional observations from a re-analysis of the deposited data

Results flagged for a closer look

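At 5 Hox regions the clones differed from each other by limma (adjusted p under 0.05). B10 ranked above G7 by 54.2 points 3.89 kb upstream of Hoxc12, by 44.4 at 1.15 kb upstream of Hoxc12 and by 36.6 at 6.39 kb upstream of Hoxc6. B10 ranked below G7 by -29.7 points at the Hoxd4 region and by -17.2 at 3.87 kb upstream of Hoxb6. The last call was lost without B10 replicate 2 or 3 or G7 replicate 3. By log2 fold enrichment the call 3.89 kb upstream of Hoxc12 (1.03, limma adjusted p = 0.0135) and that at the Hoxd4 region (-0.98, adjusted p = 0.0011) held, and those at 1.15 kb (0.71, adjusted p = 0.0823), upstream of Hoxc6 (0.70, adjusted p = 0.066) and upstream of Hoxb6 (-0.30 ± 0.12, adjusted p = 0.259) did not. The share of all regions called was 4.21% higher and 2.39% lower in B10 than in G7. The length covered by Hoxc peaks lay above the WT mean in every B10 library and below it in every G7 library, 4.83 kb apart on average, and this difference was not tested.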

How the results depend on the processing

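With peaks cut to an equal number, or needed to cover at least 25% of a region, 2 Hox regions were in G7 and not in B10; with an equal number the covered length differed by -0.06 kb in Hoxb (G7) and -0.045 kb in Hoxd (B10), and with a stricter threshold by -0.237 kb in Hoxb (G7), all reversed and smaller than the SD of WT. With 3 of 3 libraries, losses were 4 in B10, 3 in G7 and 3 in both, and regulator regions 2 gained and 3 lost in both. In gene bodies alone 5 were lost in B10, 3 were in B10 and not in G7, 1 ranked higher in G7 than in WT and 1 higher in B10 than in G7. Boundaries, pairs of neighbouring listed genes of which only 1 start was open, numbered 4 in WT, 6 in B10 and 8 in G7. Counting any coding start, they numbered 8 in WT, 8 in B10 and 10 in G7, so that WT and B10 no longer differed.

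By log2 fold enrichment, Hox regions numbered 2 higher and 2 lower in B10, 0 higher in G7, and 1 higher and 1 lower in B10 than in G7, and regulator regions 9 higher and 4 lower in B10 and 1 higher in G7. Directions turned in B10 at the region upstream of Hoxb6 (0.0268), upstream of Hoxc8 (0.157) and at the strongest Hoxa region (-0.0322), and in G7 at Hoxa2 (-0.00473) and the strongest Hoxa region (-0.0332). With all consensus regions and absent peaks at rank 0, Hox regions numbered 7 lower in B10, 10 lower in G7 and 10 higher in B10 than in G7, and regulator regions 18 lower in B10 and 10 lower in G7. With the replicate block, Hox regions numbered 14 higher in B10, 5 higher and 7 lower in G7 and 9 higher in B10 than in G7, and regulator regions 30 higher in B10, 20 higher and 8 lower in G7; the block turned no direction and lost no call among the named regions, and the calls against WT that it added at named Hox regions are given beside them.

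Chosen after seeing the data, centring ranks on the chromosome gave 2 Hox regions higher in B10, 0 in G7 and 4 lower in B10 than in G7, and 6 and 8 regulator regions higher in B10 and G7, and turned Hotairm1 (-1.49) and the strongest Hoxa region (-5.29) in B10. Centring with the block turned the same pair (-1.49 and -5.29) and gave 5 Hox regions lower in G7, 5 higher and 7 lower in B10 than in G7, and regulator regions 19 lower in B10, 21 higher and 7 lower in G7. With replicate 1 alone, 11 Hox regions were gained in B10, 7 in G7 and 4 in both, 10 were in B10 and not in G7 and 4 the reverse, and G7 differed by 0.016 kb in Hoxa, 0.21 kb in Hoxd and 1 start.

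Without single libraries or a replicate number of every line, the counts against WT ran from 3 to 6 gained and 4 to 10 lost in B10, from 1 to 2 gained and 4 to 10 lost in G7, and from 0 to 1 gained and 3 to 8 lost in both; 4 to 6 were in B10 and not in G7 and 1 to 2 the reverse. By rank, 0 to 11 were higher and 1 to 4 lower in B10, 0 to 6 higher and 0 to 4 lower in G7, and 0 to 6 higher and 0 to 2 lower in B10 than in G7. Regulator regions ran from 2 to 9 gained and 3 to 9 lost in both, and by rank from 9 to 20 higher and 3 to 10 lower in B10 and 8 to 14 higher and 1 to 4 lower in G7. WT had 7 to 9 open starts and 3 to 6 boundaries, B10 8 and 6, and G7 8 to 9 and 7 to 8. Covered length ran from -3.41 to -2.4 kb in Hoxb for B10 and from -4.54 to -3.71 kb in Hoxc for G7. Directions turned for Hoxa in B10 (-0.476 to 0.141 kb), Hoxb in G7 (-0.461 to 0.569 kb), Hoxd in B10 (-0.116 to 0.164 kb) and in G7 (-0.312 to 0.0285 kb), starts in G7 (-1 to 0.167) and the region upstream of Hoxc8 in B10 (-2.48 to 1.18 points). The cause of these changes was not tested. Fits without a replicate number leave few residual degrees of freedom. The lists give no depth, so weak or absent peaks cannot be told from shallow sequencing, and a rank depends on all other peaks of its library.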
